A study of Mus musculus with 232 samples.

Results

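Immature GABAergic neurons of the mouse dentate gyrus were taken as all cells that the authors' cell table places in the cluster Immature-GABA. They numbered 1024 of 24185 cells. RNA of single cells was counted with the 10X Chromium kit, version 2, as unique molecular identifiers (UMIs), each of which stands for 1 captured RNA molecule. The microdissected tissue came from 8 ages, named by embryonic (E) or postnatal (P) day, and each age was its own pool of animals. E16.5, P0 and P5 were CD-1 mice of unknown sex. P18 and P23 used males of CD-1, whereas P19 used females of C57Bl/6. P120 and P132 were hGFAP-GFP mice of both sexes, a line that expresses green fluorescent protein from the human GFAP promoter, and only GFP-positive cells were collected from them. The immature GABAergic cells lay at E16.5 (22 cells), P0 (587 cells), P5 (389 cells), P23 (24 cells) and P120 (2 cells). The 4 ages with 20 or more of these cells, all CD-1, entered the comparisons over age.

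Inhibitory neurons of the hippocampus are not born there. They arise in the ganglionic eminences of the ventral forebrain, where DLX transcription factors direct them to the GABAergic fate, and migrate tangentially into the dentate gyrus before and around birth. Cells from the medial ganglionic eminence carry Lhx6 and later give mainly somatostatin and parvalbumin interneurons. Cells from the caudal eminence carry factors such as Prox1 and Adarb2 and give mainly VIP, CCK and reelin interneurons. As they settle, they build up the enzymes that make GABA, the synaptic vesicle machinery and ion channels, and give up the growth programme of the migrating neuron.

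Immature GABAergic cells at E16.5 held 128461 UMIs in all, those at P0 3427094, those at P5 3352007 and those at P23 131897. The median per cell ran from 4934 UMIs at P0 to 7827 at P5. Levels are given as CPM, counts per 1000000 of the UMIs summed over these cells at an age, with exact Poisson intervals that cover counting error only. E16.5 and P23 were 1 library each. P0 and P5 were 2 libraries each, which the labels tell apart only by library name and which were treated as 1 pool. Their values are given separately where they bear on a result. Of the immature GABAergic cells, 45 shared a barcode sequence with a cell of another library. At E16.5, 2 of the 22 cells held 99.8% of 11613 haemoglobin UMIs, which made up 9.04% of that sum. Levels of other genes at E16.5 share that denominator. Haemoglobin slopes and counts of called genes are also given without such cells.

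The defining markers fitted the cluster's name. At least 1 UMI of Gad1, Gad2, Dlx1, Dlx2 or Dlx5 was found in 22 of 22 cells at E16.5, 98.3% at P0, 99.5% at P5 and 95.8% at P23. After each cell was thinned to 2000 UMIs, the shares were 90.9%, 86.2%, 87.9% and 87.5%. Immature pyramidal cells (cluster Immature-Pyr), which should lack these genes, gave 3.78%, 3.93%, 7.56% and 5.88% unthinned and at most 1.67% thinned. Among genes at 50 CPM or more at E16.5, P0 and P5, the highest ratios to the next of the 13 other clusters compared belonged to Sst, the peptide somatostatin, at 82.5, to Dlx5 at 36.6 and to Lhx6 at 31. Dlx2 followed at 29.1, Dlx1 at 28.2, Slc32a1, the vesicular GABA transporter, at 26.1, Cort, the peptide cortistatin, at 23.7, and Gad2, a GABA-synthesizing enzyme, at 21.8. Dlx6os1, which overlaps Dlx6 on the other strand and may share its reads, had a ratio of 18.7. The remaining 6 of the 15 genes named by this rule were Cacng3 at 15.9, Npy at 14.0, Sp9 at 13.8, Rpp25 at 10.7, Nrxn3 at 8.03 and Gad1 at 7.95. Since the clusters were drawn on these same cells, the ratios describe the cluster and are no test.

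Other factors that interneurons use were shared with further clusters. Mean perinatal Maf was 180 CPM here and 475 CPM in the microglia cluster. Nr2f2 was 96.8 CPM against 423 CPM in Cajal-Retzius cells. Prox1, which also directs granule cell identity, was 32.0 CPM against 638 CPM in immature granule cells (cluster Immature-GC). Reln, the reelin gene, was 145 CPM against 2708 CPM in Cajal-Retzius cells.

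Immature GABAergic cells made up 0.963% of the cells captured at E16.5 (exact 95% interval 0.604 to 1.45%). They made up 12.3% at P0 (11.4 to 13.2%), where the 2 libraries gave 11.4% and 13.2%. At P5 the share was 8.77% (7.95 to 9.64%), with libraries at 8.04% and 9.50%. No such cell was found among 2712 cells at P18 (exact 95% interval up to 0.136%) or among 2081 cells at P19 (up to 0.177%). P23 again held 24 of 2701 cells, 0.889% (0.570 to 1.32%). The sorted adult ages held 2 of 1363 cells at P120 and 0 of 3829 at P132 (exact 95% interval up to 0.0963%). The cluster was thus frequent at P0 and P5 and rare at E16.5 and P23, whose intervals overlapped.

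The perinatal mean was 7.34% ± 5.79 (SD, n = 3 ages) and the juvenile mean over P18, P19 and P23 was 0.296% ± 0.513 (SD, n = 3 ages). The difference of 7.04 percentage points had p = 0.10 by a two-sided exact permutation test, the smallest p that 3 ages against 3 allow. All 3 perinatal shares lay above all 3 juvenile shares. Among cells of neuronal clusters only, E16.5, P0, P5 and P23 gave 1.2%, 14.8%, 13.3% and 1.48%, so that P23 exceeded E16.5 and the exact p was 0.200. The authors' other GABAergic cluster, GABA, ran the other way, with 0, 0 and 4 cells at E16.5, P0 and P5 and 40, 25 and 34 cells at P18, P19 and P23. Mouse line, sex of the pool and the cells that dissociation recovers differ between ages and cannot be told apart from age here.

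**Figure D1:**
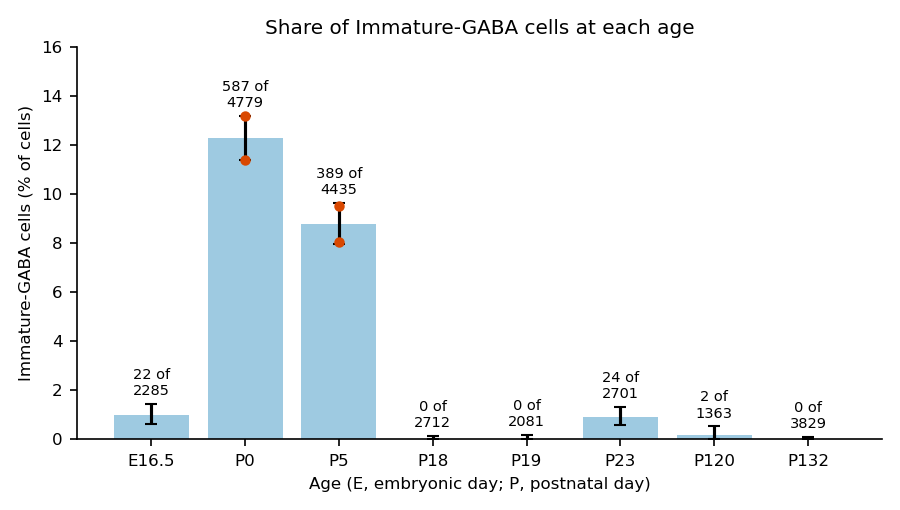
Share of Immature-GABA cells (% of all cells, vertical axis) at each of 8 ages (horizontal axis). Bars are the share at an age with its exact 95% interval, and orange points are the single libraries of ages with more than 1 library. P0 at 12.3% and P5 at 8.77% stand above every other age, and P18, P19 and P132 are at 0.

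Gad1, Gad2 and Slc32a1, which make GABA and load it into vesicles, were at their lowest at E16.5 and at their highest at P5. Gad1, the main GABA-synthesizing enzyme, was 62.3 CPM at E16.5, 273 at P0, 487 at P5 and 273 at P23. Its P0 libraries were at 269 and 276 CPM and its P5 libraries at 504 and 473 CPM. The P5 level was 7.81-fold that of E16.5 (95% counting interval 3.96 to 18.1). Gad2, the other such enzyme, was 85.6, 185, 364 and 235 CPM in the same order. Slc32a1 was 85.6, 199, 240 and 159 CPM. For all 3 genes both P5 libraries lay above both P0 libraries and above E16.5, and P23 lay between E16.5 and P5.

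Change with age was tested with edgeR's quasi-likelihood test as a slope, in log2 per age step, over E16.5, P0, P5 and P23 taken as steps 1 to 4. With 4 pools, p-values measure the distance from a flat line against the spread of these pools around a straight line. The test draws each gene's spread towards that of other genes, so small p-values rest partly on those genes. The fit asks for a steady change. Of 9874 genes tested, 77 rose (0.780%) and 29 fell (0.294%) at a Benjamini-Hochberg adjusted p under 0.05. At an unadjusted p under 0.05 there were 1149. None of the 7 genes of GABA synthesis and transport passed (median slope 0.59 against 0.03 over all genes, all 7 above 0). Gad1 had a slope of 0.51 (edgeR adjusted p = 0.210) and Gad2 one of 0.45 (adjusted p = 0.270). Over E16.5, P0 and P5 alone, a fit added after the data were seen that leaves 1 residual degree of freedom, 349 of 10471 genes rose (3.33%) and 113 fell (1.08%). In that fit 4 of the 7 genes rose, among them Gad1 with a slope of 1.15 ± 0.21 (SE; edgeR adjusted p = 1.01e-05), Gad2 with 0.94 and Abat, which breaks GABA down, with 1.01. The count of called genes depended on the ages and libraries used. It was 29 without the first P5 library, 33 without the second P0 library, 43 without the first P0 library, 68 without the second P5 library, 47 without E16.5, 31 without P5 and 5 without P0.

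**Figure D2:**
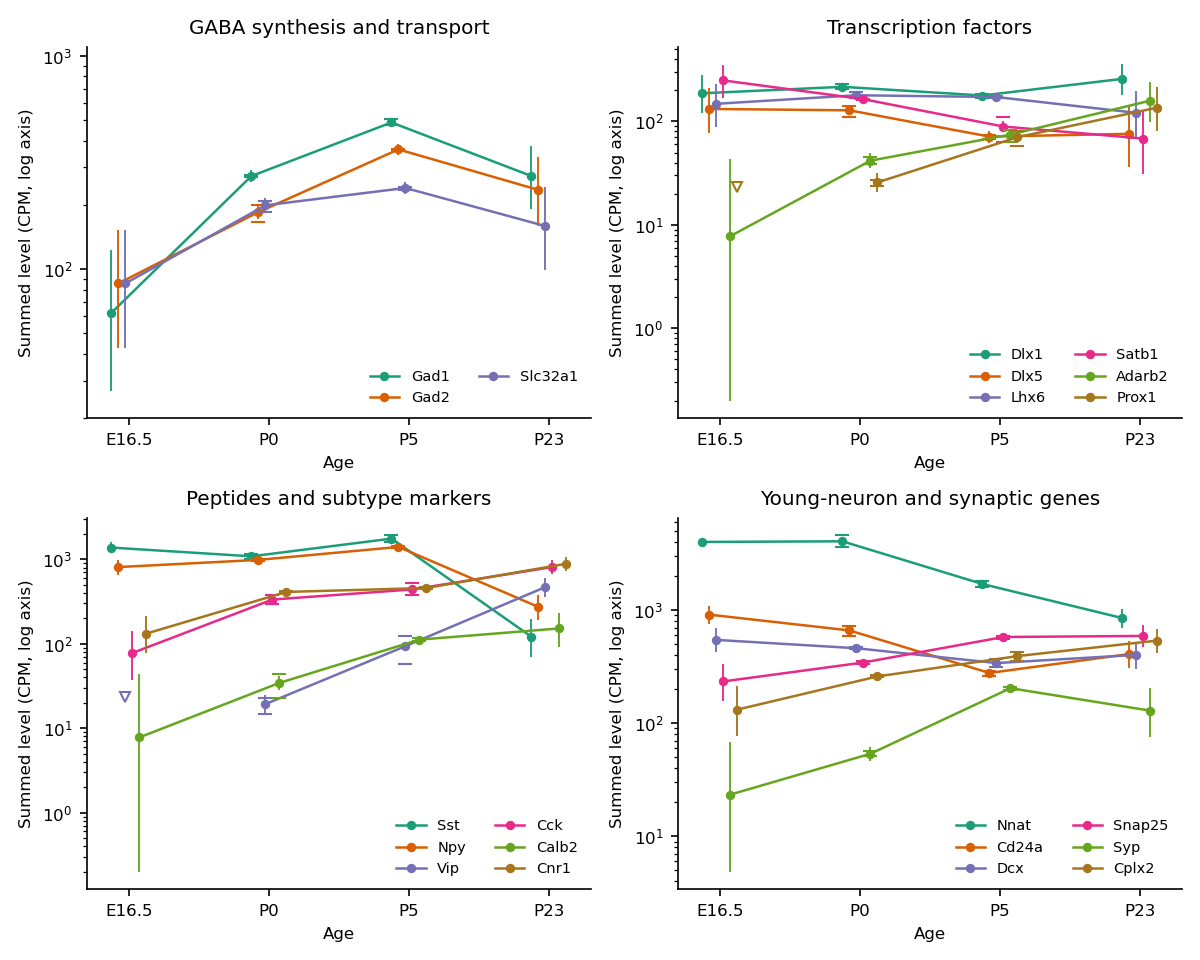
Summed level in Immature-GABA cells (CPM, log axis) of genes from 4 groups at E16.5, P0, P5 and P23. Points are the sums with exact 95% Poisson intervals, short horizontal marks are the single libraries of P0 and P5, and open triangles mark the level of 3 UMIs, 23.4 CPM, where no UMI was found. Gad1, Gad2 and Slc32a1 peak at P5, Vip climbs from no UMI to 470 CPM, and Sst falls to 121 CPM at P23.

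The DLX factors, which set the GABAergic fate, were present at every age. Dlx1 was 187, 216, 178 and 258 CPM at E16.5, P0, P5 and P23, with overlapping intervals at E16.5 and P0. Dlx2 was 218, 217, 106 and 235 CPM, and Dlx5 was 132.3, 128, 71.3 and 75.8 CPM. None of the 9 tested genes of this list passed over the 4 ages (median slope -0.09). Over E16.5 to P5 alone Dlx2 fell by 0.69 per step (edgeR adjusted p = 0.0268).

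Of the factors of the medial eminence, Satb1, a chromatin organizer needed by somatostatin interneurons, fell over the 4 ages. It was 249 CPM at E16.5, 164 at P0, 89.2 at P5 and 68.2 at P23, with a slope of -0.76 ± 0.18 (SE; edgeR adjusted p = 0.0132). Its P0 libraries were at 161 and 166 CPM and its P5 libraries at 63.6 and 110 CPM. The call was lost without E16.5 (adjusted p = 0.247), P0 (0.194), P5 (0.108) or the first P5 library (0.0644). Lhx6, which defines this lineage, was 148, 179, 172 and 121 CPM. Over E16.5 to P5 alone 3 of the 7 genes tested fell, Satb1 and Sox6 among them, against 1.08% of all genes. Sox6 was 23.4, 23.6 and 4.77 CPM at those ages. Maf was 101, 221, 217 and 470 CPM over the 4 ages and Mef2c 607, 1006, 964 and 1971 CPM, neither with a call. Nkx2-1, the eminence's patterning factor, stayed at or under 14.0 CPM, and Lhx8 had no UMI.

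Of 7 factors of the caudal eminence, 2 rose and 1 fell over the 4 ages, against 0.780% and 0.294% of all genes. Prox1 had no UMI at E16.5, 25.7 CPM at P0, 70.4 at P5 and 136 at P23, a slope of 1.27 ± 0.25 (SE; edgeR adjusted p = 0.00138). The P5 level was at least 3.01-fold higher than 3 UMIs at E16.5 would be. Adarb2, an RNA-editing family gene that marks caudal interneurons, was 7.78, 41.7, 74.6 and 159 CPM (slope 0.97, adjusted p = 0.0119). Its E16.5 value is 1 UMI, and the call was lost without E16.5 (adjusted p = 0.156), P23 (0.0515), the second P0 library (0.0711) or the first P5 library (0.0545). Nr2f1, the nuclear receptor COUP-TFI, fell from 436 CPM at E16.5 through 291 and 241 to 106 at P23 (slope -0.65, adjusted p = 0.0168). That call was lost without E16.5 (0.209), P0 (0.225), P23 (0.0860), the second P0 library (0.0555) or the first P5 library (0.0566). Nr2f2, the related COUP-TFII, was 70.1, 114, 106 and 83.4 CPM. The median level of Prox1 over the other clusters was 42.5, 46.0, 84.4 and 57.2 CPM.

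Lhx6 and Adarb2 lay largely in different cells. At P0, 281 cells had an Lhx6 UMI and 306 had none. Adarb2 was found in 1.78% of the former and 28.8% of the latter, and in 1.17% and 11.3% after thinning to 2000 UMIs. At P5 the shares were 2.74% of 219 cells with Lhx6 and 46.5% of 170 cells without (2.20% and 14.8% thinned). The 4 libraries gave 1.56% and 28.1%, 1.96% and 29.4%, 3.92% and 51.3%, and 1.71% and 42.6%. In each library the share was thus far lower among cells with Lhx6. In immature pyramidal cells, which should lack both genes, Lhx6 was found in 0.898% at P0 and 1.33% at P5 and Adarb2 in 0.342% and 0.741%, at medians of 6412.5 and 10036 UMIs. Cells with Lhx6 were the deeper ones, with a median of 5397 against 4623 UMIs at P0 and 8683 against 6660 at P5. In the thinned counts the cells were divided anew, so cells that lost their Lhx6 UMIs joined those without. Some other eminence factors were less divided. Prox1 was found in 4.63% of cells with and 12.1% without Lhx6 at P0 and in 14.6% and 32.4% at P5, and Nr2f2 in 28.5% and 38.2% at P0 and 28.8% and 45.3% at P5. Maf, on the medial list, was found in 66.5% of cells with and 44.8% without Lhx6 at P0, and in 75.8% and 48.2% at P5. Thinned, these shares were 38.6% and 30.8%, then 45.1% and 31.2%. Divided by Adarb2 instead, Maf was found in 52.7% of cells with and 55.7% without at P0, and in 47.1% and 68.4% at P5.

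Some subtype genes followed the division by Lhx6. Cnr1, the cannabinoid receptor of CCK interneurons, was found in 21.0% of cells with and 67.0% of cells without Lhx6 at P0, and in 24.7% and 72.9% at P5 (thinned 4.09% and 44.0%, then 12.1% and 37.6%). As a summed level it was 53.6 against 786 CPM at P0 and 51.6 against 1101 CPM at P5. Vip was found in 0.356% and 6.21% at P0 and in 1.37% and 12.4% at P5 (thinned 0% and 3.12%, then 0% and 5.70%). Sst went the other way, in 47.7% of cells with and 14.7% without Lhx6 at P0 and in 42.9% and 20.6% at P5. After thinning, Sst stood at 38.6% and 22.6% at P0 and at 24.2% and 22.8% at P5. The thinned P5 groups held 91 and 298 cells, since cells that lost their Lhx6 UMIs joined those without. These close P5 shares therefore do not separate depth from the new division of cells. In the groups before thinning, the summed level of Sst was 1728 against 413 CPM at P0 and 2409 against 731 CPM at P5. Npy, neuropeptide Y, was found in 52.3% and 21.2% at P0 and in 65.3% and 32.4% at P5 (thinned 45.0% and 22.4%, then 52.7% and 36.2%). At P5, Nos1, which makes nitric oxide, was found in 39.3% and 12.4%, and Lamp5, a marker of neurogliaform cells, in 36.5% and 8.24%. Thinned, these came closer, at 15.4% and 10.1% for Nos1, and at 15 of 91 cells and 9.06% for Lamp5. Gad1 differed little, with 278 against 267 CPM at P0 and 520 against 434 CPM at P5. Reln was hardly divided, found in 34.2% of cells with and 33.3% without Lhx6 at P0 and in 46.1% and 48.2% at P5. Cck was found in 20.6% and 43.1% at P0 and, less divided, in 36.1% and 44.1% at P5. Thinned, Cck stood at 8.19% and 27.6% at P0 and at 19.8% and 25.2% at P5. The summed level of Cck was 66.7 against 615 CPM at P0 and 153 against 895 CPM at P5. Of cells with an Adarb2 UMI, 87 of 93 at P0 and 80 of 85 at P5 also had Cnr1. Of cells with Sst, 62.0% at P0 and 70.5% at P5 also had Npy, against 24.8% and 41.2% of cells without Sst. These shares describe cells of 2 pools and carry no test.

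**Figure D3:**
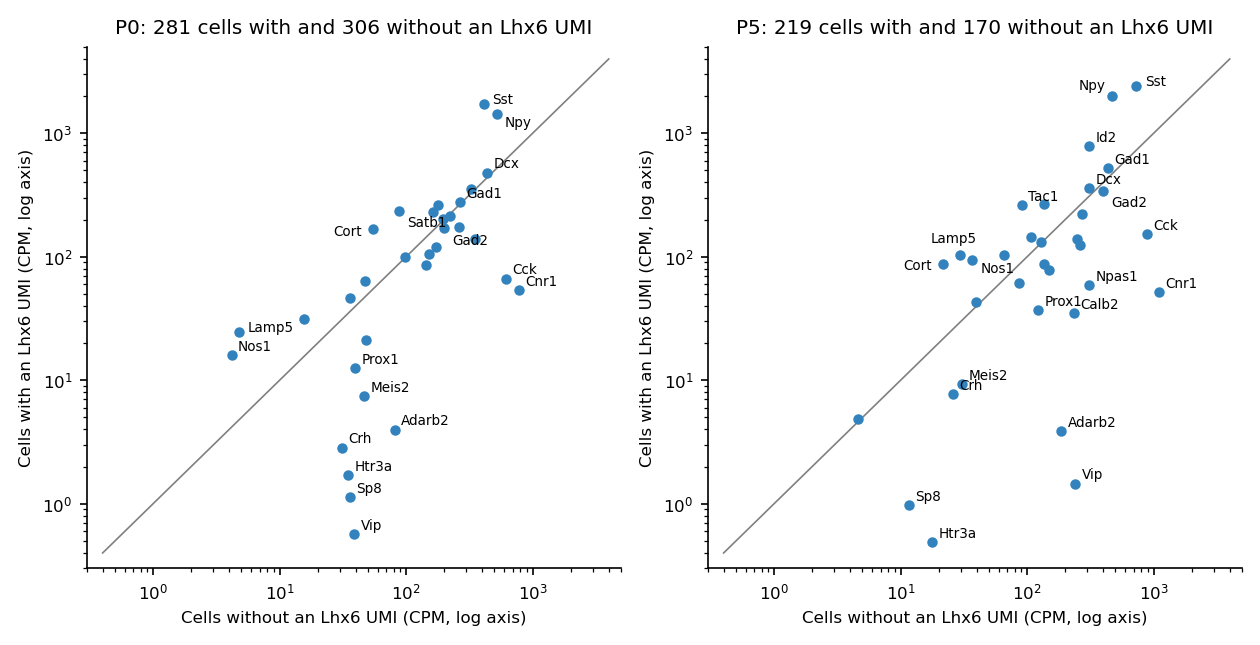
Summed level of listed genes in Immature-GABA cells with an Lhx6 UMI (CPM, vertical log axis) against those without (CPM, horizontal log axis), at P0 and at P5, each point 1 gene and the grey line marking equal levels. Sst, Npy and Lamp5 lie above the line at both ages, Cnr1, Adarb2 and Vip lie far below it, and Gad1 lies near it.

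Sst and Npy were found at E16.5, while Vip and Crh had no UMI there. Sst was 1378 CPM at E16.5, 1086 at P0, 1759 at P5 and 121 at P23, with P0 libraries at 1013 and 1143 CPM and P5 libraries at 1949 and 1606 CPM. Its slope of -0.63 did not pass (edgeR adjusted p = 0.109). Npy was 810, 985, 1403 and 273 CPM (adjusted p = 0.509). At E16.5, 2 of the 22 cells held 59.3% of the Sst UMIs and 2 held 77.9% of the Npy UMIs. The 59 cells richest in Sst held 75.3% of its UMIs at P0, and the 39 richest held 83% at P5. At P23, 15 of the 16 Sst UMIs lay in 1 cell, so its level there rests on that cell.

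Of the 19 peptide and subtype genes, 17 were tested and 5 rose over the 4 ages, with none falling (median slope 0.82). Over all genes 0.780% rose and 0.294% fell. Vip, vasoactive intestinal peptide, had no UMI at E16.5, 19.3 CPM at P0, 93.7 at P5 and 470 at P23, a slope of 2.25 ± 0.22 (SE; edgeR adjusted p = 4.75e-13). Its P0 libraries were at 14.8 and 22.7 CPM and its P5 libraries at 57.5 and 123 CPM, so the ages did not overlap. The call held in each of the 15 other fits made. Vip was found in 3.41% of cells at P0, 6.17% at P5 and 7 of 24 cells at P23, or 2.21%, 4.37% and 25.0% after thinning. Its 62 UMIs at P23 lay in several cells, with 30.6% in the highest. Calb2, the calcium buffer calretinin, was 7.78, 34.4, 112 and 152 CPM (slope 1.16, adjusted p = 0.00171). Its E16.5 value is 1 UMI, and the call was lost without P0 (0.319). Cck, cholecystokinin, was 77.8, 334, 440 and 811 CPM (slope 0.82, adjusted p = 6.59e-04), and the call was lost without E16.5 (0.333). At P23, 42.1% of its 107 UMIs lay in 1 cell. Immature pyramidal cells held more Cck, at 236, 975 and 1504 CPM at E16.5, P0 and P5. Cnr1 was 132.3, 411, 458 and 887 CPM (slope 0.68, adjusted p = 0.00629), and the call was lost without E16.5 (0.480), P0 (0.0773) or the first P5 library (0.0545). Crh, corticotropin-releasing hormone, was 0, 16.6, 14.9 and 197 CPM. It was called (adjusted p = 3.81e-04), but its slope was 0.09 without P23 (adjusted p = 0.974), where 1 cell held 50% of 26 UMIs, and the call was also lost without the first P0 library (0.0685).

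Over E16.5 to P5 alone, 8 of 16 tested genes of this list rose and none fell, against 3.33% and 1.08% of all genes. They were Vip, Cck, Calb2, Cnr1, Tac1, Nos1, Lamp5 and Id2. Tac1, the substance P precursor, was 15.6, 41.4 and 196 CPM, and then 75.8 CPM at P23. Nos1 was 0, 10.2 and 71.6 CPM and Lamp5 0, 14.9 and 74.6 CPM. Neither had a UMI at P23, where the exact upper limit of such a count is 28.0 CPM. Id2, an inhibitor of helix-loop-helix factors, was 132.3, 340 and 601 CPM, then 212 CPM at P23. Pvalb, the parvalbumin gene of fast-spiking cells, had 1 UMI at P0, 3 at P5 and none at E16.5 or P23.

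Genes of the young neuron's growth programme were found at every age, and those that passed the 4-age test fell. Of 16 genes, 2 fell over the 4 ages and none rose, with a median slope of -0.24 and 2 slopes above 0. Over all genes 0.294% fell and 0.780% rose. Nnat, neuronatin, was 4001, 4052, 1700 and 849 CPM (slope -0.89 ± 0.15, SE; edgeR adjusted p = 5.92e-05). Its P0 libraries at 4620 and 3617 CPM lay above its P5 libraries at 1807 and 1615 CPM, and the call was lost without P0 (0.0773). Cd24a, a surface glycoprotein of young neurons, was 911, 661, 278 and 409 CPM (slope -0.56, adjusted p = 0.0177). Its call was kept in 7 of 16 other fits and lost without E16.5, P0, P5, either P0 library or the first P5 library. Over E16.5 to P5 alone, 5 of 16 fell, adding Sox11, Stmn1 and Igfbpl1, and Gap43 rose. Over all genes in that fit 1.08% fell and 3.33% rose. Sox11, a factor of newly made neurons, was 1323, 907 and 463 CPM, then 864 CPM at P23. Gap43, the growth-cone protein, was 459, 1170 and 1597 CPM, then 1175 CPM. Dcx, the microtubule protein of migrating neurons, was 545, 460, 340 and 402 CPM with no call.

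Synaptic and channel genes that passed the test rose. Over the 4 ages 2 of 11 tested presynaptic genes rose (median slope 0.42), against 0.780% of all genes. Over E16.5 to P5 alone 8 of 12 rose, against 3.33% of all genes, and none fell in either fit. Syp, synaptophysin, was 23.4, 53.7, 204 and 129 CPM (4-age slope 0.88, edgeR adjusted p = 0.0301). Cplx2, which times vesicle fusion, was 132.3, 259, 392 and 538 CPM (adjusted p = 0.0473). Each was called in only 6 other fits, of 15 for Syp and 16 for Cplx2, and both lost their call without E16.5, without P0 and without any 1 of the 4 libraries of P0 and P5. Snap25, a fusion protein, was 234, 344, 578 and 591 CPM, with P0 libraries at 354 and 336 and P5 libraries at 558 and 594 CPM. Syt1, the calcium sensor of release, was 210, 313, 803 and 409 CPM. Snap25 and Syt1 rose in the 3-age fit (adjusted p = 0.0354 and 2.62e-05), and neither passed over 4 ages.

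Of sodium and potassium channel genes, 2 of 12 tested rose over the 4 ages (median slope 0.58, all 12 above 0) and 6 of 12 over E16.5 to P5. Over all genes 0.780% rose in the 4-age fit and 3.33% in the 3-age fit. Scn2a1, an early sodium channel, was 7.78, 86.7, 193 and 174 CPM (4-age adjusted p by edgeR 0.0300). Its call was kept in 6 of 16 other fits and lost without E16.5, P0, P5 or any 1 of the 4 libraries of P0 and P5. None of 13 tested genes of the GABA-A receptor and inhibitory postsynapse passed over 4 ages (median slope 0.46), and 3 of 14 rose in the 3-age fit, Gabrb1 and Gabrg3 among them. Slc12a5, the chloride exporter KCC2 whose rise makes GABA inhibitory, was 38.9, 37.3, 104 and 83.4 CPM, a rise in the 3-age fit (slope 1.08, adjusted p = 0.0128) and not over 4 ages (adjusted p = 0.250). Slc12a2, the importer NKCC1, stayed at or under 30.3 CPM with no call. Of 12 tested glutamate receptor genes none passed over 4 ages, and Grin2a rose in the 3-age fit. Migration and guidance genes showed no call in either fit among 15 and 14 tested. Of 15 cycling genes, only 1 had enough counts to test, and their summed level was 15.6, 17.8, 33.1 and 7.58 CPM.

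**Figure D4:**
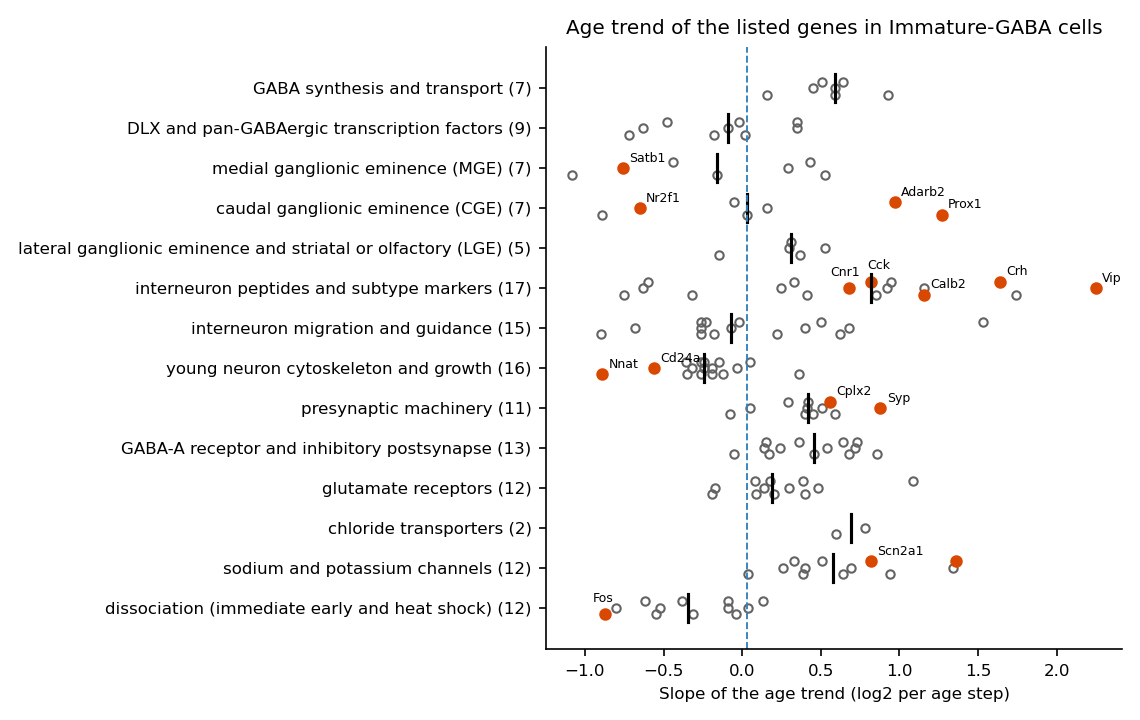
Slope of the age trend over E16.5, P0, P5 and P23 (log2 per age step, horizontal axis) for the tested genes of each list in Immature-GABA cells, with the number tested in brackets. Filled orange points passed an adjusted p of 0.05 and are named except for 1 channel gene, open points did not, black bars are list medians and the dashed blue line is the median of 0.03 over all 9874 genes. Growth genes lie mostly left of the line and presynaptic, receptor and channel genes mostly right of it, and few single genes are filled.

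Across all genes, 458 were at a mean of 50 CPM or more and higher at each later age, and 31 of them were called. The 10 of these with the highest P5 level relative to E16.5 included Vip, Prox1 and Calb2. Thsd7a, a membrane protein with thrombospondin repeats, was 0, 45.5, 125 and 129 CPM, at least 5.35-fold higher at P5 than 3 UMIs at E16.5 would be (edgeR adjusted p = 0.0127). Its call was kept in 8 of 14 other fits and lost without E16.5, P0, either P0 library or the first P5 library. Igf1, a secreted growth factor, was 7.78, 159, 281 and 318 CPM, and its P5 level was 36.1-fold that of the 1 UMI at E16.5 (counting interval 6.47 to 1429; adjusted p = 0.0105). Its call was kept in 9 of 16 other fits and lost without E16.5, P0, P5, either P0 library or the first P5 library. It was higher in these cells than in each other cluster compared at P0, P5 and P23. Cadm2, a synaptic adhesion molecule, was 31.1, 205, 376 and 516 CPM (adjusted p = 6.59e-04), with P0 libraries at 183 and 221 and P5 libraries at 364 and 385 CPM, and the call was lost without E16.5 or P0. Ccnd2, cyclin D2, was 0, 19, 44.7 and 205 CPM (adjusted p = 6.69e-06).

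The remaining 3 of the 10 were Mt3, Apoe and Mbp, each of which was highest at P23 in a glial cluster. Mt3, a metal-binding protein of brain, was 31.1, 94.0, 344 and 394 CPM (edgeR adjusted p = 6.00e-05), its median over other clusters was 117, 217, 265 and 513 CPM, and it reached 8517 CPM in the cluster Astro-juv at P23. At P5 Mt3 was 663 CPM in immature pyramidal cells and 755 CPM in immature granule cells. The calls of Mt3 and Apoe were lost without P0. Apoe was 7.78, 16, 112 and 212 CPM, and its median over other clusters was 165, 88.4, 397 and 324 CPM. Mbp, the myelin basic protein gene, was 0, 3.5, 11.3 and 235 CPM, and its median over other clusters was 4.51, 4.08, 14.8 and 256 CPM. Its P5 level lay under that of 3 UMIs at E16.5, so its place among the 10 depends on the prior count added before the ratio was taken, and its call was lost without P23. Summed oligodendrocyte markers in the immature GABAergic cells were 0, 12.5, 34.6 and 318 CPM, with 1 of 3 tested rising. Summed astrocyte markers were 93.4, 95.1, 293 and 402 CPM, with 2 of 6 tested rising over 4 ages (Aqp4 and Slc1a2) and 3 of 5 over E16.5 to P5. Over all genes 0.780% rose over 4 ages and 3.33% over E16.5 to P5. Microglial markers summed to 75.8 CPM at most and endothelial markers to 7.78 CPM. The part of free RNA or mixed droplets in these values was not tested.

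Of 236 genes at the same level and lower at each later age, 12 were called. Xist, the X-inactivation RNA of female cells, was 1985 CPM at E16.5, 580 at P0, 0.298 at P5 and 0 at P23 (edgeR adjusted p = 1.29e-15). Tsix overlaps it on the other strand and may share its reads. Over all cells of these ages Xist was 1710, 458, 0.580 and 1.44 CPM, and the Y-linked Ddx3y was 6.14, 44.5, 73.8 and 111 CPM. The sex makeup of the pools therefore moved with age, and it cannot be told apart from age in any gene reported here. Mpped2, a phosphodiesterase-family gene, was 483, 213, 109 and 106 CPM, 4.41-fold lower at P5 than at E16.5 (counting interval 3.31 to 5.78; adjusted p = 2.33e-04). Cdk4, the kinase that opens the cell cycle, was 420, 205, 121 and 91.0 CPM (adjusted p = 7.52e-04). The calls of Mpped2 and Cdk4 were lost without E16.5 or P0, and that of Btf3 without P0. Btf3, which binds nascent chains at the ribosome and has processed pseudogenes that may share its reads, was 1113, 873, 541 and 356 CPM (adjusted p = 0.00427). Ypel1, Rab33a, Adh5, Satb1, Carhsp1 and Svbp made up the 10, with slopes between -0.94 and -0.61. Each of these 6 lost its call without E16.5, and all but Ypel1 without the first P5 library.

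Markers of blood and of excitatory neurons also moved in these sums. The 4 haemoglobin genes, which belong to red blood cells and share reads within each pair, summed to 90401, 21.3, 935 and 7.58 CPM, and all 4 fell. Without the haemoglobin-bearing cells the fall was lost, with slopes of 0.04 for Hba-a1, 0.14 for Hbb-bs and 0.44 for Hbb-bt, none of them called, and too few counts of Hba-a2 to test. Excitatory neuron markers summed to 405, 74.4, 121 and 152 CPM. Of 5 tested, Neurod6 fell and Slc17a7 rose, while over all genes 0.294% fell and 0.780% rose. At least 2 excitatory UMIs were held by 5 of 22, 40 of 587, 57 of 389 and 3 of 24 cells. Neurod6 over other clusters had medians of 147, 39.8, 23.6 and 12 CPM. Without the cells holding such UMIs, 77 genes were called, 66 of them among the 106, and without the haemoglobin-bearing cells 112 were called, 100 of them among the 106. Of 12 tested genes that respond to dissociation, Fos alone fell, against 0.294% of all genes, and none rose. Fos was 288, 304, 186 and 15.2 CPM (edgeR adjusted p = 0.00728). Its call was kept in 10 of 16 other fits and lost without P23, P0, either P0 library or the first P5 library.

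Whether these changes differed from those of other young neurons in the same animals was tested as a difference of slopes over E16.5, P0 and P5, with age as a block. Each age was treated as its own pool, so no pool of an age was replicated. The test again draws each gene's spread towards that of other genes. Very small p-values here therefore do not stand for replicated pools. Against immature pyramidal cells, 209 of 11784 genes had a more positive slope in immature GABAergic cells (1.77%) and 104 a more negative one (0.883%). With another library scaling (RLE) the share of more positive calls was 56.4% in place of 66.8%. Without the haemoglobin-bearing cells 161 had a more positive and 117 a more negative slope. Against immature granule cells, 131 had a more positive (1.11%) and 110 a more negative slope (0.933%). The slopes give more weight to P0 and P5, which hold most UMIs. Immature GABAergic cells enter both comparisons, so the comparisons are not independent of each other.

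Against immature pyramidal cells the most positive slope difference belonged to Id2, at 2.75 ± 0.14 (SE; edgeR adjusted p = 2.28e-79). Id2 was 132.3, 340 and 601 CPM in immature GABAergic cells and 349, 327 and 66.6 CPM in immature pyramidal cells. Sema3c, a secreted guidance cue, differed by 2.12, at 54.5, 20.7 and 88.9 CPM against 166, 241 and 136 CPM. Erbb4, the neuregulin receptor of migrating interneurons, differed by 1.86 and Gad2 by 1.74, and both lay under 2 CPM in immature pyramidal cells. Elmo1, which acts in cell movement, differed by 1.36. Dgkg, a diacylglycerol kinase, differed by -1.92, at 46.7, 70.9 and 67.4 CPM against 3.52, 11.6 and 52.8 CPM. The other 4 most negative differences were the haemoglobin genes, from -3.60 for Hba-a2 to -2.22 for Hba-a1. Without the haemoglobin-bearing cells these reversed for Hba-a1 (0.35), Hba-a2 (1.57) and Hbb-bs (0.25), none of them called.

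Against immature granule cells Calb2 had the most positive difference, 2.36 ± 0.22 (SE; edgeR adjusted p = 8.30e-24). It was 7.78, 34.4 and 112 CPM in immature GABAergic cells and 368, 211 and 142 CPM in immature granule cells. Sema3c (1.62), Thsd7a (1.59), Alcam, an adhesion molecule (1.53), and Gria4, an AMPA receptor subunit (1.49), followed. The most negative differences belonged to Dgkg (-3.0), Neto1 (-2.63), Adcy1 (-2.60), Cacng3 (-2.47) and Lmo3 (-2.45). All 5 had no UMI in immature granule cells at E16.5, so the size of these differences depends on the fit. Adcy1, an adenylyl cyclase, was 23.4, 108 and 196 CPM here and 0, 13.4 and 157 CPM there.

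Among the listed genes, 5 of 16 tested peptide and subtype genes had a more positive and 1 a more negative slope than in immature pyramidal cells, against 4 and 2 of 16 for granule cells. Over all genes, 1.77% had a more positive and 0.883% a more negative slope than in pyramidal cells. The shares of all genes for granule cells were 1.11% and 0.933%. Calb2, Id2 and Cnr1 were more positive and Sst more negative in both comparisons. Sst was far lower in the other clusters, at 1.86, 6.76 and 10.8 CPM in immature pyramidal and 0, 3.83 and 15.7 CPM in immature granule cells. Cnr1 differed by 0.80 and 0.62, while its level was 132.2, 124 and 115 CPM in immature pyramidal cells and 52.6, 76.2 and 61.6 CPM in immature granule cells. Cck was called in neither comparison, with a difference of -0.12 from immature pyramidal cells (edgeR adjusted p = 0.869) and 0.16 from immature granule cells. Of 16 growth genes, Cd24a and Nnat had a more negative slope in both comparisons. Nnat differed by -1.0 and -0.63: it was 1667, 2565 and 3130 CPM in immature pyramidal cells and 1335, 1451 and 1323 CPM in immature granule cells. A further 6 growth genes, Sox4, Tubb3, Tubb2b, Igfbpl1, Gap43 and Tmsb10, had a more positive slope than in immature pyramidal cells, and none than in immature granule cells. Of GABA synthesis genes Gad2 was called against pyramidal cells and Gad1 against granule cells, and of the 9 DLX-list genes none was called in either. In the presynaptic list 1 of 12 had a more positive and 1 a more negative slope than in pyramidal cells, and 2 of 12 a more positive slope than in granule cells.

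At P23 the 24 immature GABAergic cells could be set beside 34 cells of the cluster GABA from the same library, as a description with 1 sample each. All 16 growth genes were higher in the immature cells, at 29326 against 5724 CPM in sum. Tubb2b, a tubulin of young neurons whose reads may be shared with Tubb2a, was 2146 against 92.8 CPM, 23.1-fold higher (counting interval 15.9 to 34.7). Nnat was 849 against 44.9 CPM (18.9-fold), Sox11 864 against 59.9 CPM (14.4-fold) and Nrep 804 against 47.9 CPM (16.8-fold). Igfbpl1, with no UMI in the GABA cluster, was at least 31.2-fold higher than 3 UMIs there would be. St8sia2, which makes polysialic acid on migrating neurons, was 32.9-fold higher (counting interval 4.95 to 1399) and Meis2, a factor of lateral-eminence lineages, 19-fold (4.42 to 171), from 1 and 2 UMIs in the GABA cluster. Traf4 (30.4-fold) and Haus7 (13.9-fold) also rested on 1 and 2 UMIs there. Meis2 was found in 3 of the 24 immature GABAergic cells and in 51 of 51 immature pyramidal cells at P23. Gm8730, at 60.1-fold, is a processed pseudogene that may share reads with its parent gene, so its value is uncertain.

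The lists of mature function were lower in the immature cells. Genes of GABA synthesis and transport summed to 1221 against 6071 CPM, presynaptic genes to 3063 against 9361 CPM with 1 of 12 higher, and sodium and potassium channels to 758 against 2185 CPM. GABA-A receptor genes summed to 864 against 2194 CPM, and peptide and subtype genes to 3654 against 12136 CPM. The genes highest in the GABA cluster relative to these cells were, beside 3 haemoglobin genes, Hapln1, a link protein of perineuronal nets, at 671 against 7.58 CPM (88.4-fold, counting interval 15.7 to 3509), Slc24a2 (45.0-fold), Setd7 (23.3-fold), Frmpd4 (22.9-fold), Cox6a2 (21.3-fold), Rasgrp1 (20.9-fold) and Gpr158 (20.1-fold). Each of these 7 rested on 1 UMI in the immature cells. DLX factors summed to 1478 against 1033 CPM and caudal-eminence factors to 781 against 772 CPM. Medial-eminence factors summed to 2767 against 1341 CPM, of which Mef2c, also a gene of other neurons, made up 1971 and 814 CPM. Of the 24 cells, 7 had an Lhx6 UMI, 8 Adarb2, 7 Vip and 2 Sst.

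**Figure D5:**
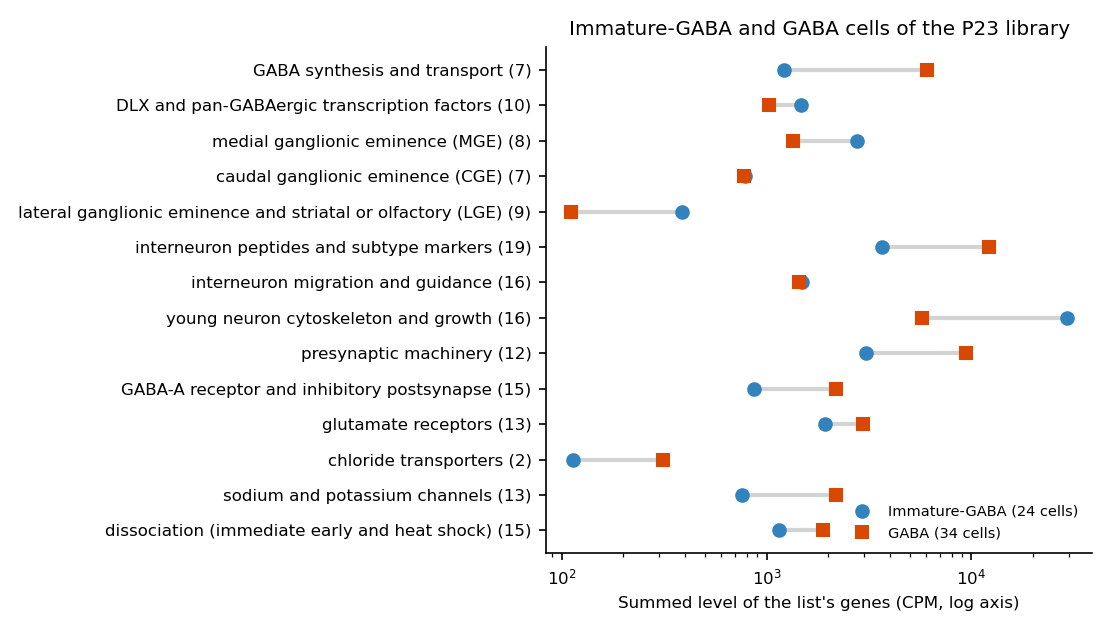
Summed level of each gene list (CPM, log axis, number of genes in brackets) in the 24 Immature-GABA cells (blue circles) and the 34 GABA cells (orange squares) of the P23 library, joined by grey lines. Growth genes lie at 29326 against 5724 CPM, while synthesis, peptide, presynaptic, receptor and channel lists lie higher in the GABA cluster.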

How the data were processed

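Counts, whole numbers of UMIs per gene and cell for 27933 genes, were used as the authors deposited them. Cell Ranger and the build mm10 are named per the submitters' processing notes, with no role given; cell filters, annotation and clustering method are not given in the sources used here. Age, line, sex of the pool and cluster came from the deposited cell table, whose 31 empty lines were left out. The labels' 232 samples are parts of age and cluster combinations, so the age was the unit of replication. UMIs were summed over the cells of a cluster at an age with 20 or more of them.

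Sums were tested with edgeR 4.0.16 (R 4.3.3; TMM, filterByExpr, glmQLFit, glmQLFTest, two-sided, Benjamini-Hochberg over all genes tested, called under 0.05) and, as an alternative, DESeq2 1.42.0. Shares used an exact permutation test and Clopper-Pearson 95% intervals. Where a sum had 0 UMIs, folds were taken against 3 UMIs in that sum. Intervals and limits of a 0 count cover counting error only. Cells were thinned to 2000 UMIs by random draws without replacement. No doublet caller was run; cells over 3 times the median UMIs, with 2 or more excitatory UMIs or with 10 or more haemoglobin UMIs were left out as alternatives. The fits were tested on simulated counts.

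Genes were named by rule: the listed genes; of genes called over the 4 ages with a mean of 50 CPM, values in 1 order and E16.5 apart from both P5 libraries, the 10 with the highest and the 10 with the lowest P5 level relative to E16.5; the 5 most positive and 5 most negative called slope differences; the 15 highest ratios to the next cluster; and the 10 highest ratios each way at P23 with 10 or more UMIs. Alternatives covered scaling, filters, libraries, ages, cells, a shared spread and DESeq2. The cluster and the gene lists were chosen with earlier results of these data known. The list counts over E16.5, P0 and P5 alone, and the fits without haemoglobin-bearing cells or without an age, were added after seeing the data. Some listed genes are not reported here, although list counts and medians include them.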

Additional observations from a re-analysis of the deposited data

Results flagged for a closer look

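Slopes over E16.5, P0 and P5 that differed between immature GABAergic cells and immature pyramidal or granule cells, by edgeR's quasi-likelihood test of the interaction, are collected here in log2 per age step. Why they differed was not tested.

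Against immature pyramidal cells the slope was more positive for Id2 (2.75), Sema3c (2.12), Erbb4 (1.86), Gad2 (1.74), Elmo1 (1.36), Calb2 (0.87) and Cnr1 (0.80). It was more negative for Hba-a2 (-3.60), Hbb-bt (-3.17), Hbb-bs (-2.26), Hba-a1 (-2.22), Dgkg (-1.92), Robo2 (-1.57), Junb (-1.02), Nnat (-1.0), Sst (-0.80), Cd24a (-0.74) and Grm5 (-0.69). The haemoglobin values moved with 2 cells at E16.5 that held 99.8% of the haemoglobin UMIs of that sum. Sst was 1378, 1086 and 1759 CPM in immature GABAergic cells, 1.86, 6.76 and 10.8 CPM in immature pyramidal cells and 0, 3.83 and 15.7 CPM in immature granule cells.

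Against immature granule cells the slope was more positive for Calb2 (2.36), Sema3c (1.62), Thsd7a (1.59), Alcam (1.53), Gria4 (1.49), Id2 (0.64) and Cnr1 (0.62). It was more negative for Dgkg (-3.0), Neto1 (-2.63), Adcy1 (-2.60), Cacng3 (-2.47), Lmo3 (-2.45), Junb (-2.07), Robo2 (-1.81), Sst (-1.67), Grm5 (-0.65), Nnat (-0.63) and Cd24a (-0.43). Robo2, a receptor for the repulsive cue SLIT, was 46.7, 57.8 and 75.2 CPM in immature GABAergic cells, 4.89, 23.3 and 88.0 CPM in immature pyramidal cells and 9.57, 3.83 and 26.8 CPM in immature granule cells. Grm5, a metabotropic glutamate receptor, was 296, 279 and 523 CPM against 60.7, 170 and 407 CPM and 38.3, 116 and 279 CPM. Junb, an immediate early gene, was 77.8, 210 and 83.2 CPM, so its slope does not describe a steady change.

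The 2 cells of P120, which entered no comparison, held 14 UMIs of the 5 defining markers: 4 of Gad2, 6 of Dlx1, 3 of Dlx2, 1 of Dlx5 and 0 of Gad1.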

How the results depend on the processing

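No paired analysis was possible because the sample numbers in the labels are parts of 1 age and cluster combination, whose cells are not told apart; clusters were blocked by age instead. The 106 genes called over 4 ages became 222 with RLE scaling, 35 with DESeq2, 955 with libraries as samples and 3 with a spread shared over 3 clusters. Leaving out a library gave 29 to 68 and leaving out an age 5 to 462. DESeq2 called 31 of the 106 genes and libraries as samples 105. Libraries as samples gave 822 in place of 313 differences from immature pyramidal cells and 531 in place of 241 from immature granule cells; other settings kept both counts within 1.5 times. Those fits could not be run without an age, since no residual degrees of freedom remain. Without haemoglobin-bearing cells the differences from pyramidal cells reversed for Hba-a1 (0.35), Hba-a2 (1.57) and Hbb-bs (0.25). The higher perinatal share of the cluster kept its direction with neuronal cells as denominator (exact p = 0.20) and without each age. Of 40 shares of cells with a UMI, 35 moved on thinning and 5 did not. Of 479 gene values over 4 ages under these alternatives, 331 kept their call and 148 lost it, and none reversed; the haemoglobin genes, which are not among these values, turned from a fall to slopes of 0.04 to 0.44 without the cells that hold them. With the shared spread Vip kept its call, while Prox1 (adjusted p = 0.401), Calb2 (0.568), Cck (0.439) and Nnat (0.432) lost theirs. The 22 cells of E16.5 and 24 of P23 limit precision. A gene with no UMI at E16.5 has an exact upper limit of 28.7 CPM, and the 3 UMIs used for folds are 23.4 CPM there.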
